A study of Mus musculus with 18 samples.

Results

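The genes described here are 39 developmental transcription factor genes of the mouse, mostly homeobox and T-box genes, of the kind that Polycomb complexes keep silent in adult tissues. They were taken as a given list: 7 LIM homeobox, 6 NK homeobox, 7 T-box, 3 sine oculis-type (Six2, Six3, Six6), 6 Distal-less, 6 Iroquois and 2 Otx genes, and the GATA zinc finger genes Gata4 and Gata6. The list was drawn up with earlier results of these data known, so shares over all genes are given beside it for description only. All 39 genes were found among 21883 protein-coding genes of the RefSeq annotation. Each gene was given a window, its annotated span with 5 kb on each side, and the base pairs of that window under called peaks were counted in all 18 deposited peak lists. Windows ran between 13.1 kb for Irx3 and 124 kb for Tbx15, with a median of 19.3 kb, against a median of 27.2 kb over all genes. The windows of Dlx1 and Dlx2 overlap, as do those of Dlx5 and Dlx6, but no called peak fell in both windows of a pair.

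All livers came from mice of the strain C57BL/6 at 8 weeks of age and were assayed by ChIP-seq. KO livers carried CTCF fl/fl with Albcre, a Cre recombinase driven by the albumin promoter and hence active in hepatocytes. Liver cells in which Cre was never active keep the gene. WT livers were CTCF fl/fl without Albcre, so both groups carry the floxed alleles. H3K27me3 and H3K4me3 were each measured in 1 KO and 1 WT library, H3K27ac in 3 KO and 3 WT, and CTCF and PPARg each in 2 KO and 2 WT. CTCF, PPARg KO 7, PPARg KO 8 and PPARg WT 2 came from fasted males and were made by tagmentation. All histone libraries and PPARg WT 4 were ligated, and the sex of those animals is not stated. The labels of the ligated libraries name liver as the tissue but carry a growth text on cultured neural stem cells. The H3K4me3 and H3K27ac peaks matched liver. The windows of all 11 matched hepatocyte marker genes, albumin among them, held H3K4me3 in KO and in WT and H3K27ac in all 6 libraries. None of the 11 held H3K27me3, but only 13.7% of all genes in KO and 12.5% in WT held it. That absence alone does not show the tissue of the H3K27me3 libraries, and PPARg WT 4 was not checked.

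H3K27me3 is the trimethyl mark that Polycomb repressive complex 2 places on histone H3, and H3K4me3 marks promoters that are active or poised. In cells that do not use a developmental regulator, H3K27me3 typically lies in a broad domain over its CpG-rich promoter and gene body. H3K27ac marks active promoters and enhancers and cannot stand on the same lysine as H3K27me3. CTCF is the DNA-binding factor that, with cohesin, sets boundaries of chromatin loops, and such boundaries can border Polycomb domains. Gata4 and Gata6 are endoderm factors used in liver development, Gata4 and Lhx2 are known from hepatic stellate cells, whereas most of the other genes build brain, heart, limb, gut or kidney.

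Promoter sequences of 300 bases, 250 before and 50 after the start, were at hand in RefSeq (GRCm38.p6) for 25 of the 39 genes. Where several such promoters were listed for a gene, the most upstream one was used. It can lie inside the annotated span. The Tbx4 promoter, on the plus strand, begins at chr11:85896515, and the Tbx4 span begins at chr11:85886367. Capitals mark each CG dinucleotide, the CpG site, which reads the same on both strands. The 6 shown are the promoters at which H3K27me3 covered at least 295 of 300 bases in both genotypes (Nkx2-3, Tbx18) or all bases in KO and at most 5 in WT (Nkx2-1, Six3), the promoter that carried H3K4me3 over its full length in both (Irx3), and the one with the most CpG sites (Nkx6-1). They lie at chr19:43612075-43612374 on the plus strand (Nkx2-3), chr9:87731211-87731510 on the minus strand (Tbx18), chr12:56536859-56537158 on the minus strand (Nkx2-1), chr17:85620584-85620883 on the plus strand (Six3), chr8:91801605-91801904 on the minus strand (Irx3) and chr5:101664662-101664961 on the minus strand (Nkx6-1).
Nkx2-3: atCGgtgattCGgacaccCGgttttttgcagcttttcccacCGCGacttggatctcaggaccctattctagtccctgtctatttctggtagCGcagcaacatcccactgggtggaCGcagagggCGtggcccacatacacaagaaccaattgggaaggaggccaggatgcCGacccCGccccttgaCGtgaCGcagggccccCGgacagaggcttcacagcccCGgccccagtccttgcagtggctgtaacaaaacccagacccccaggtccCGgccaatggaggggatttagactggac
Tbx18: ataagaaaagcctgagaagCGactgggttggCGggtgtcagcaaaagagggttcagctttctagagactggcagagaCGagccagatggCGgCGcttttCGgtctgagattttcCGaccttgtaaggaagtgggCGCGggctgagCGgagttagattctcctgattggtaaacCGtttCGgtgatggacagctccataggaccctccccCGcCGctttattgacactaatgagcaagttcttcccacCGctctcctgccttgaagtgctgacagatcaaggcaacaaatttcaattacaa
Nkx2-1: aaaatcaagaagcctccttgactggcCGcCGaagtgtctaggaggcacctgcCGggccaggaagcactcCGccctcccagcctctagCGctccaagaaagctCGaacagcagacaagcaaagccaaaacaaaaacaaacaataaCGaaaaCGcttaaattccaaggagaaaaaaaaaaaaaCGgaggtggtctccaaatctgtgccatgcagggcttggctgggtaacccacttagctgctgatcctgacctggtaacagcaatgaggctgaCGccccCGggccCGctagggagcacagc
Six3: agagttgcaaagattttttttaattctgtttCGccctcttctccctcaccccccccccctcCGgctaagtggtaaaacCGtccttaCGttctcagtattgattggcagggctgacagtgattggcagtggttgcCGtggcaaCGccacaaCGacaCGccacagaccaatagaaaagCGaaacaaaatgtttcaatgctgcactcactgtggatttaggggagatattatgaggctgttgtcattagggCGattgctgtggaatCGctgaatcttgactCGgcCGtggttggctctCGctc
Irx3: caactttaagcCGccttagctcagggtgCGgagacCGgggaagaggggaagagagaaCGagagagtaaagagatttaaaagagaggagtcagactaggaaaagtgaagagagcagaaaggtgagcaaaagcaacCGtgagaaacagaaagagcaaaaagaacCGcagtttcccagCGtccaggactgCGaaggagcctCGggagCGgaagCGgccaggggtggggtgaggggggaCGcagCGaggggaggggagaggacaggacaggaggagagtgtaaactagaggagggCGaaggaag
Nkx6-1: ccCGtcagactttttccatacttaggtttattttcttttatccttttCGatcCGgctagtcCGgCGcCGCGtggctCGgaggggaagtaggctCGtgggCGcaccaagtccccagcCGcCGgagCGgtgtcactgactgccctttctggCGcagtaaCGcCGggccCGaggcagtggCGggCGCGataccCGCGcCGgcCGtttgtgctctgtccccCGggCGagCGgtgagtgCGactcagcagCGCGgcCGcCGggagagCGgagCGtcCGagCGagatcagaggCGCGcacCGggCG

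The Nkx2-3 and Tbx18 promoters hold 15 CpG sites each, Nkx2-1 holds 12, Six3 and Irx3 hold 14 each and Nkx6-1 holds 40. The Nkx6-1 promoter lay under no H3K27me3 or H3K4me3 peak in either genotype, although 47.1% of its window in KO and 40.0% in WT was under H3K27me3. At least 12 CpG sites were present in 80% of the 25 promoters and in 53.4% of 17491 protein-coding promoters. The 25 promoters had a median GC content of 61.0%, against 56.3% over all promoters, and a median of 17 CpG sites, against 13. Peaks of H3K27me3 overlapped 7 of these 25 promoters in KO and 4 in WT, which is 28% and 16%, against 1.6% in KO and 0.932% in WT over all promoters. H3K4me3 peaks overlapped 2 of 25 in KO (Irx2, Irx3) and 1 in WT (Irx3), against 49.2% of all promoters in KO and 48.4% in WT.

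H3K27me3 peaks were present at 38 of the 39 genes in KO, where 13.7% of all genes had one, and at the same 38 in WT, where 12.5% had one. Gata6 was the exception in both. None of the 39 thus had a peak in 1 genotype only, as 3.62% of all genes had in KO only and 2.46% in WT only. This count depended on weak peaks. With peaks of a −log10 q of at least 2 alone, a threshold chosen after seeing the data, 35 of the 39 were marked in KO, as were 5.87% of all genes, and 14 in WT, as were 2.72%, so that 22 were marked in KO only, as were 4.19% of all genes. The marked length was larger in KO: the median gene of the list had 27.4% of its window under H3K27me3 in KO and 18.4% in WT, a median difference of 7.51 percentage points. Over the 3537 genes with a peak in either genotype the medians were 1.5% in KO and 0.875% in WT, with a median difference of 0.508 points. There was 1 library per genotype, so none of these differences has a replicate check, and no test was made.

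Coverage was higher in KO at 31 of the 39 genes and lower at 7 (Lhx8, Nkx2-3, Tbx20, Dlx1, Irx2, Otx1, Gata4), and 67.6% of all genes with a peak in either genotype were higher in KO. At 16 of the 39 the KO value was at least 10 points above the WT value, which held for 1.16% of all genes and for 7.15% of those with a peak. Genes with little H3K27me3 cannot reach a 10-point difference, so these shares also reflect how much of each window was covered. Median coverage in KO was 27.4% at the 39 genes and 1.5% over all genes with a peak in either genotype. At 0 of the 39 was it at least 10 points below, which held for 0.0503% of all genes. The whole KO list covered more of the genome than the WT list, 6.25 Mb against 4.01 Mb, or 1.56 times as much. Summed over the 39 windows, H3K27me3 covered 242 kb in KO and 155 kb in WT, or 1.57 times as much, so the ratio at these genes was close to that of the whole lists. The windows held 3.88% of all KO peak length and 3.86% of all WT peak length. When the KO list was shortened to the covered length of the WT list by dropping its weakest peaks, the median difference was 4.37 points, 26 genes were higher in KO, 12 were lower, and 12 were at least 10 points higher. In that setting 43.4% of the 3120 genes with a peak in either genotype were higher in KO, and 147 of them were at least 10 points higher.

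**Figure D1:**
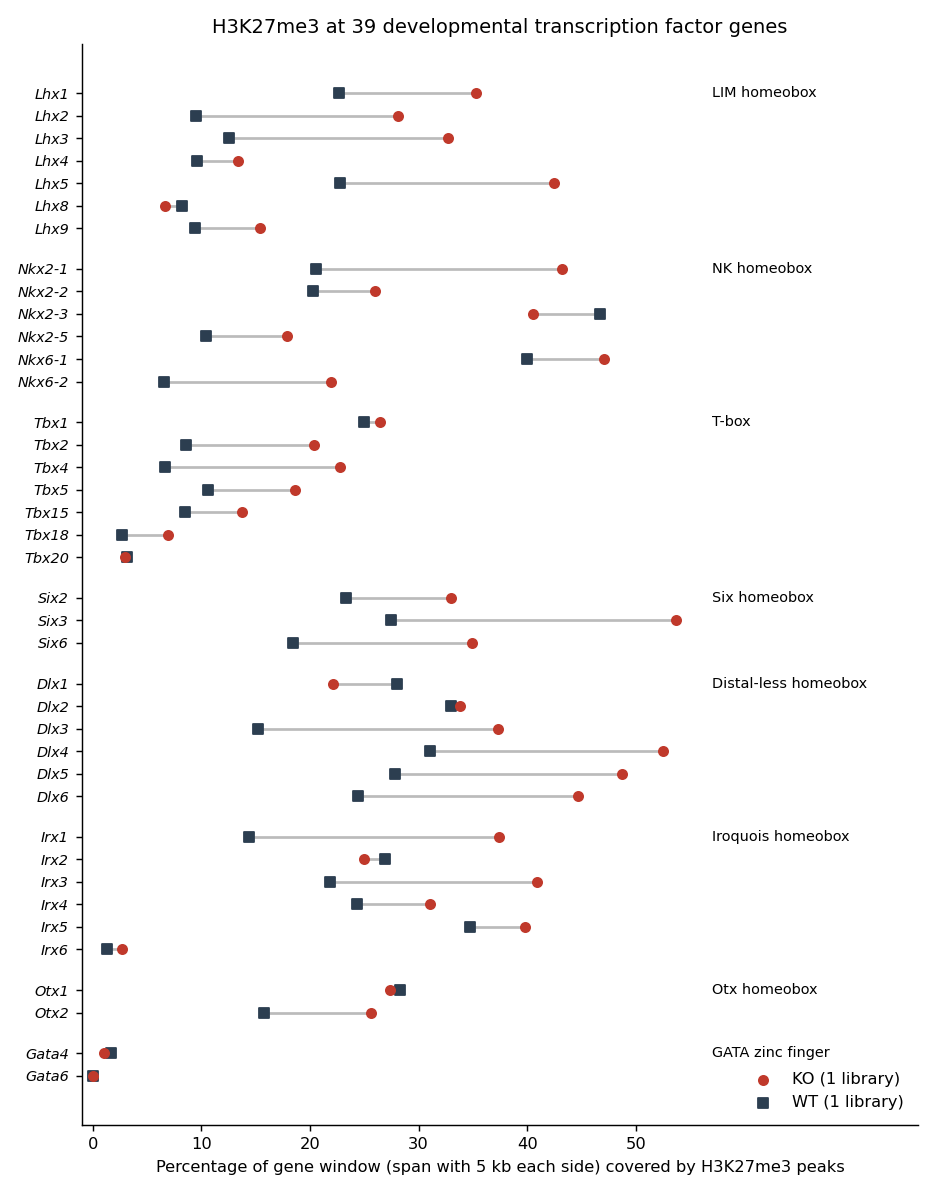
Percentage of each gene window covered by H3K27me3 peaks in the KO library (red circles) and the WT library (dark squares), by gene family, with a grey line joining the values of a gene. Most circles lie to the right of their squares (31 of 39 genes), Six3 has the highest KO value at 53.7%, Nkx2-3 the highest WT value at 46.7%, and Gata6 is at 0 in both.

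Among the 7 LIM homeobox genes, which direct neuron, eye and pituitary development, median coverage was 28.1% in KO and 9.59% in WT. Lhx5, a forebrain and hippocampus regulator, had 42.4% in KO and 22.8% in WT. Lhx1, needed for head and kidney formation, had 35.2% in KO and 22.7% in WT. Lhx3, a pituitary and motor neuron factor, had 32.7% in KO and 12.6% in WT. These 3 genes and Lhx2, at 28.1% in KO and 9.54% in WT, all passed the 10-point mark. The other LIM genes did not pass it. Lhx9, a gonad regulator, was higher in KO, with 15.4% against 9.44% in WT. Lhx4, the pituitary partner of Lhx3, was also higher, with 13.4% in KO and 9.59% in WT. Lhx8, known from forebrain cholinergic neurons, ran the other way with 6.69% in KO and 8.21% in WT.

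The 6 NK homeobox genes had medians of 33.3% in KO and 20.4% in WT and included the most heavily covered WT genes. Nkx6-1, a pancreatic beta cell and motor neuron factor, had 47.1% in KO and 40.0% in WT. Nkx2-3, which patterns gut and spleen, had 40.5% in KO and 46.7% in WT. By percentage covered, Nkx2-3 ranked 2nd among all 21883 genes in WT and 80th in KO, and Nkx6-1 ranked 7th in WT and 47th in KO. The largest NK difference was at Nkx2-1, the thyroid and lung regulator, with 43.2% in KO and 20.5% in WT. Nkx6-2, an oligodendrocyte factor, had 22.0% in KO and 6.58% in WT. Differences under 10 points were found at Nkx2-2, which acts in ventral neural tube and pancreas, with 26% in KO and 20.3% in WT, and at the heart gene Nkx2-5, with 17.9% in KO and 10.4% in WT.

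T-box genes, which pattern heart, limb and mesoderm, had a smaller percentage of the window under H3K27me3. Medians were 18.7% in KO and 8.52% in WT over 7 genes. Tbx1, a pharyngeal arch gene, was the most covered by percentage, at 26.4% in KO and 25% in WT. Tbx4, the hindlimb and lung mesenchyme gene, had 22.8% in KO and 6.69% in WT. Tbx2, active in the atrioventricular canal of the heart, had 20.4% in KO and 8.58% in WT. Tbx4 and Tbx2 were the T-box genes past 10 points. The forelimb and heart gene Tbx5 had 18.7% in KO and 10.7% in WT, and Tbx15, a skeletal gene, had 13.8% in KO and 8.52% in WT. Tbx18, of epicardium and somites, had 6.92% in KO and 2.69% in WT, and the heart gene Tbx20 had 3.01% in KO and 3.17% in WT. Tbx18 thus combined a low window value with a promoter that was covered almost end to end in both genotypes.

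Six3, a forebrain and eye gene at chr17:85613608-85626191, had the highest KO coverage of the 39 genes and their largest difference, with 53.7% in KO and 27.5% in WT, 26.2 points apart. Its 300-base promoter was covered in full in KO and not at all in WT. Six6, of eye and pituitary, had 34.9% in KO and 18.4% in WT, and Six2, of nephron progenitors, had 33.0% in KO and 23.3% in WT.

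The Distal-less genes, which act in forebrain interneurons, jaw, limb and skin, had the highest family medians, 41.0% in KO and 27.9% in WT. Dlx4 had 52.5% in KO and 31.0% in WT, and its neighbour Dlx3, of skin appendages and bone, had 37.3% in KO and 15.3% in WT. The overlapping pair Dlx5 and Dlx6, of jaw and limb, had 48.7% and 44.6% in KO and 27.8% and 24.4% in WT. These 4 genes were between 20.3 and 22.1 points higher in KO. The interneuron pair differed from them: Dlx1 had 22.2% in KO and 28.0% in WT, and Dlx2 had 33.8% in KO and 33.0% in WT.

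Among the 6 Iroquois genes, which act in neural and heart patterning, the medians were 34.2% in KO and 23.1% in WT. Irx3, at chr8:91798511-91801654, had 40.9% in KO and 21.8% in WT, and Irx1 had 37.4% in KO and 14.4% in WT, both past 10 points. The heart gene Irx5 had 39.8% in KO and 34.7% in WT, Irx4, of the cardiac ventricle, had 31.1% in KO and 24.3% in WT, and Irx2 had 25% in KO and 26.9% in WT. Irx6 carried a single short peak in each genotype, 447 bp in KO and 223 bp in WT, at different places. It was the least covered homeobox gene of the list at 2.68% in KO and 1.34% in WT. The head and forebrain gene Otx2 had 25.6% in KO and 15.8% in WT, and Otx1, of the cortex, had 27.4% in KO and 28.3% in WT.

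The GATA genes stood apart from the homeobox genes. Gata6 had no H3K27me3 peak in either genotype. Gata4 had 1 peak of 902 bp in KO and 5 peaks of 115 to 675 bp in WT, or 1.09% of its window in KO and 1.73% in WT. In KO, 520 bp of the 902 bp also lay under an H3K27ac peak of at least 1 of the 6 libraries, and in WT 3 of the 5 peaks lay fully under such peaks.

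The H3K27me3 peaks of these genes were weak as called. Fold enrichments, the authors' values, ran between 2.63 and 4.69 in KO and between 2.70 and 4.43 in WT over 237 KO peaks and 240 WT peaks. The highest −log10 q value was 3.83 in KO and 2.99 in WT, so none reached 5, which 28 KO peaks and 24 WT peaks of the whole lists did. Peaks in these windows were wider than elsewhere, with a median of 805 bp in KO and 492.5 bp in WT, against 457 bp in KO and 372 bp in WT outside them. The number of peaks in these windows was thus about equal in the genotypes and the KO peaks were longer. At least 1 base was shared with a WT peak by 67.5% of KO peaks, and with a KO peak by 78.3% of WT peaks, against 39.3% and 48.3% over the whole lists. By length, 40.8% of the KO peaks lay on WT peaks and 64.0% of the WT peaks on KO peaks. A KO peak spanned 2 or more WT peaks in 32 cases, and a WT peak spanned 2 or more KO peaks in 8.

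H3K27me3 in KO was higher beside the start sites used for these genes than on them. For the 25 genes with a RefSeq start, coverage in the first kb downstream was 19.8% in KO and 19.7% in WT. Between 1 and 2 kb downstream it was 43.3% in KO and 29.5% in WT. Between 3 and 2 kb upstream it was 44.5% in KO and 33.4% in WT. In KO the first kb was thus less covered than the bins on either side, and there KO and WT had nearly the same value. In WT other nearby bins were as low, with 19.4% between 2 and 1 kb upstream and 13.7% between 2 and 3 kb downstream. Over 2654 other genes with H3K27me3 in the window, the first kb had 9.65% in KO and 5.45% in WT, and the bin between 1 and 2 kb had 15.5% in KO and 9.24% in WT.

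**Figure D2:**
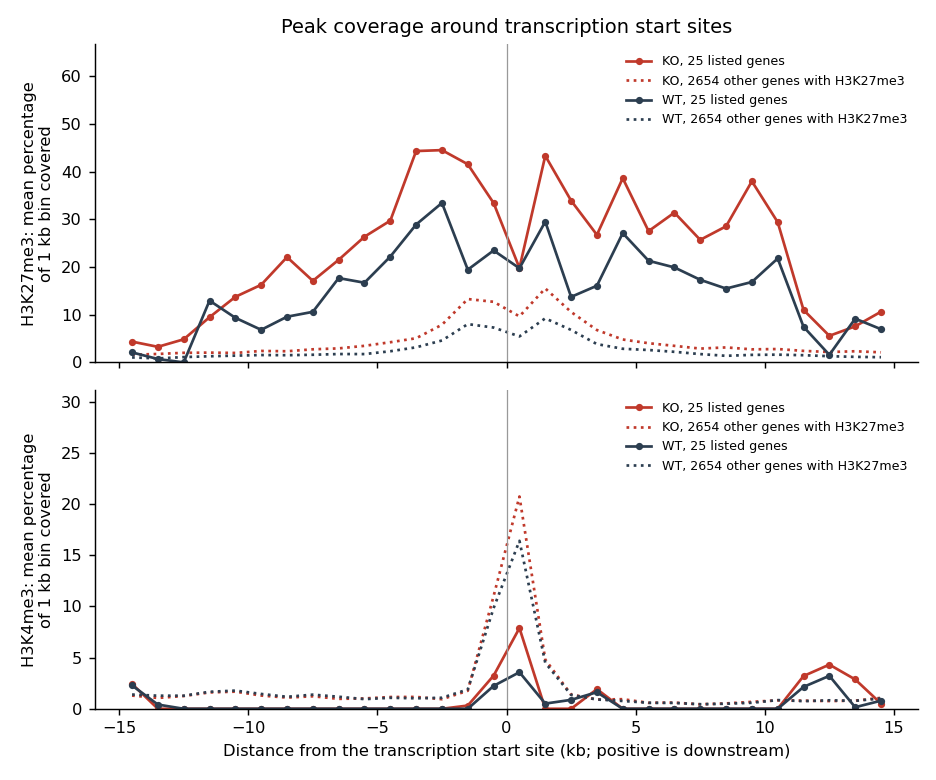
Mean percentage of each 1 kb bin covered by H3K27me3 peaks (upper panel) and H3K4me3 peaks (lower panel) by distance from the transcription start, for the 25 listed genes with a RefSeq start (solid) and for 2654 other genes with H3K27me3 in the window (dotted), KO in red and WT in dark blue. H3K27me3 at the listed genes dips in KO to 19.8% in the first kb after the start, where WT has 19.7%, and their H3K4me3 there averages 7.89% in KO and 3.57% in WT.

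H3K4me3 was called at 13 of the 39 genes in KO, where 59.6% of all genes had a peak, and at 8 in WT, where 57.5% had one. The 8 were marked in both genotypes: Lhx1, Lhx2, Tbx2, Tbx20, Irx3, Irx5, Gata4 and Gata6. Another 5 genes, Lhx4, Tbx1, Tbx15, Irx2 and Otx1, had a peak in KO only, as did 3.15% of all genes, and 0 had one in WT only, as did 1.06%. The KO-only peaks were small, covering between 181 bp (Tbx1) and 390 bp (Otx1) in all per gene, with fold enrichments of at most 4.24. With peaks of a −log10 q of at least 5 alone, 7 genes had H3K4me3 in KO and 7 in WT.

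Gata6 had the most H3K4me3, over 15.5% of its window in KO and 17.3% in WT, and Gata4 had 7.47% in KO and 8.68% in WT. Irx3 had 9.24% in KO and 7.88% in WT, and Tbx2 had 9.17% in KO and 6.08% in WT. Irx5 had 6.98% in KO and 5.15% in WT, and Lhx1 had 5.95% in KO and 5.12% in WT. The GATA genes were thus lower in KO and these 4 homeobox and T-box genes higher. Lhx2 differed most in ratio, with 5.85% in KO and 1.02% in WT, and Tbx20 had 1.40% in KO and 1.5% in WT. Over the genome the H3K4me3 list was shorter in KO, 19.1 Mb against 21.7 Mb in WT. Again there was 1 library per genotype and no test.

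Both marks lay in the window of 12 genes in KO, where 6.2% of all genes had both, and of 7 in WT, where 4.48% had both. They seldom lay on the same bases. In KO, 1.46 kb of 22.5 kb of H3K4me3 in these windows was also under H3K27me3, or 6.49%, of which 845 bp lay at Lhx2, 249 bp at Tbx20, 181 bp at Tbx1, 174 bp at Otx1 and 12 bp at Irx3. In WT it was 0 of 19.8 kb. The corresponding shares of the whole lists were 0.290% in KO and 0.104% in WT. Peak lists of bulk tissue do not show whether both marks sit on the same nucleosome or in different cells.

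H3K27ac was absent from the windows of 31 genes in all 6 libraries, as from 32% of all genes. The other 8 were those with H3K4me3 in both genotypes. Of them 6 had H3K27ac in all 6 libraries, where 57.3% of all genes did. In limma with Benjamini-Hochberg adjustment over 14877 genes, 0 genes were higher in KO (0%) and 0 were lower (0%). At an unadjusted p under 0.05, 765 genes were higher and 158 lower. None of the 8 listed genes passed the adjusted test.

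Gata6 had 26.4%, 26.1% and 29.7% of its window under H3K27ac in KO 2, KO 3 and KO 4, against 22.1%, 21.4% and 22.8% in WT 1, WT 2 and WT 4. All KO values lay above all WT values. The difference was 5.33 points (SE 1.19, limma adjusted p = 0.726). Lhx2 had 18.5%, 21.2% and 39.9% in the KO libraries, against 17.4%, 13.5% and 8.36% in the WT libraries. The groups did not overlap and KO 4 was far above the others, and the difference was 13.4 points (SE 6.35, limma adjusted p = 0.793), or 6.72 points without KO 4. Lhx1 had 6.51%, 8.78% and 7.56% in KO, against 5.62%, 5.99% and 6.01% in WT, also without overlap (1.75 points, SE 0.793, limma adjusted p = 0.793).

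In all, 3 of the 8 genes had every KO value above every WT value, which held for 10.2% of the genes tested. The same 3 genes did so without KO 4, when the share of all genes was 10.6%. KO 4 covered 126 Mb in all and the other 5 libraries between 78.2 and 91.5 Mb. When each library was divided by its total covered length, Lhx2 kept all KO values above all WT values, while the groups overlapped at Lhx1 and Gata6.

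At the other 5 genes the groups overlapped. Gata4 averaged 52.8% ± 10.8 in KO and 44.7% ± 3.58 in WT, and Tbx2 averaged 44.3% ± 12.3 in KO and 31.6% ± 7.21 in WT (SD, n = 3 each). Tbx20 averaged 11.1% ± 2.72 in KO and 7.97% ± 4.43 in WT (SD, n = 3 each). Irx3 averaged 1.96% ± 3.39 in KO and 2.71% ± 2.60 in WT, and Irx5 averaged 2.44% ± 2.15 in KO and 2.43% ± 0.615 in WT (SD, n = 3 each). Without KO 4 the difference was 2.38 points at Gata4, against 8.10 with all libraries, and 5.66 at Tbx2, against 12.8. At Tbx20 it was 3.15 points with all libraries, 1.66 without KO 4 and 0.630 without WT 4. The limma adjusted p values of these 5 genes ran between 0.805 and 0.998. The Irx3 mean rested on KO 4 alone, since KO 2, KO 3 and WT 1 had no peak there.

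The H3K27ac differences of stellate, endothelial and lymphocyte markers were all positive where tested, none past the adjusted limma test, and their part in the Lhx2 and Gata values was not tested. Summed over 10 stellate marker genes, H3K27ac coverage ran between 176 and 256 percentage points in KO, with a middle value of 186, and between 98.5 and 151 in WT, with a middle value of 141. In the limma differences 10 of 10 were higher in KO, 0 passed the adjusted test, and 5 had all KO values above all WT values. Over all genes tested 75.9% were higher in KO and 10.2% had all KO values above all WT values. Ngfr was the marker at 0 in all WT libraries, and no marker was at 0 in all KO libraries. Endothelial markers summed to between 232 and 397 points in KO and between 238 and 284 in WT, so those groups overlapped, and 10 of 10 were higher in KO by the limma difference, 1 of them without overlap. Of the lymphocyte markers 5 of 5 tested were higher in KO, and 1 was without overlap. Their median difference was 7.88 points, against 7.27 points for the stellate markers. Their sums overlapped, between 25.3 and 94.7 points in KO and between 32.9 and 48.6 in WT. Of the Kupffer cell markers 3 of 6 tested were higher in KO, and of the cholangiocyte markers 2 of 3. Hepatocyte markers summed to between 688 and 780 points in KO and between 711 and 783 in WT, and 4 of 10 tested were higher in KO. In bulk liver, fewer or more cells of a type and a changed mark per cell cannot be told apart.

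**Figure D3:**
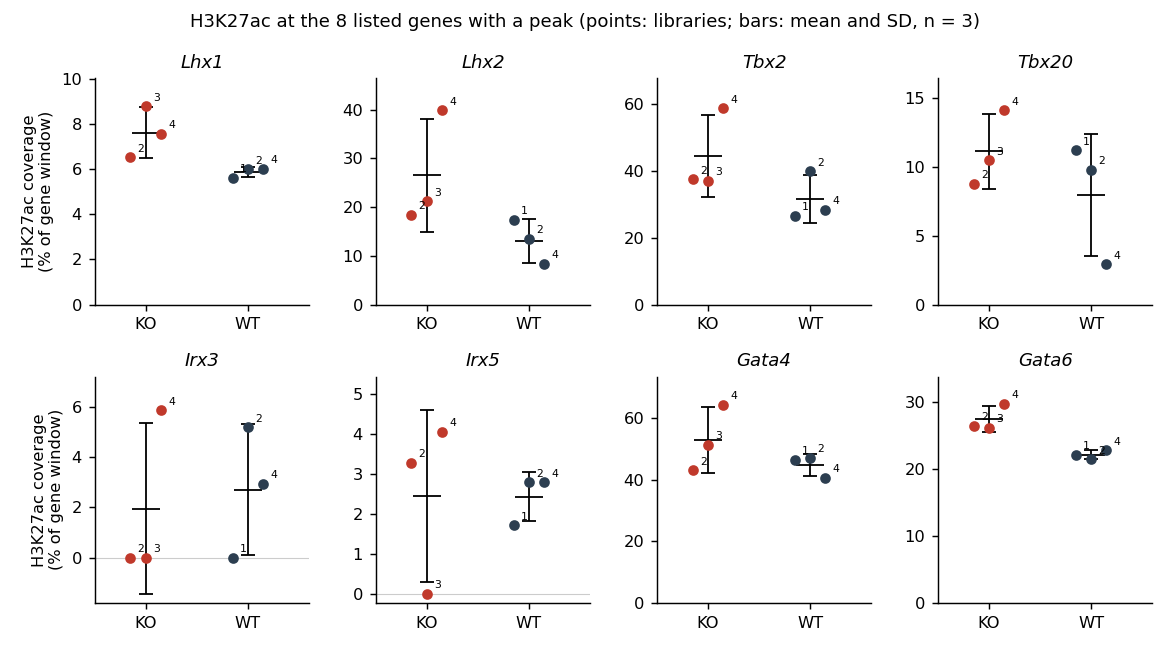
Percentage of the gene window covered by H3K27ac peaks at the 8 listed genes with a peak, KO libraries left (red) and WT libraries right (dark), each point a library labelled with its number, with mean and SD (n = 3 each). KO lies above WT without overlap at Lhx1, Lhx2 and Gata6, and KO 4 is the highest library at 7 of the 8 genes, the exception being Lhx1.

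A small part of the H3K27ac in these windows lay on the same bases as H3K27me3 of the same genotype. It came to 5.0, 4.85 and 10.1 kb in KO 2, KO 3 and KO 4, against 2.87, 2.02 and 1.0 kb in WT 1, WT 2 and WT 4. All KO values lay above all WT values, and the KO H3K27me3 list they were set against was 1.57 times as long in these windows. How much of that difference comes from the longer list was not tested.

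CTCF was called in at least 1 of 4 libraries at 18 of the 39 genes, where 53.2% of all genes had a peak, in all 4 at 12 genes, and in none at 21. The 2 KO lists held 18597 and 20323 peaks, and the 2 WT lists 27585 and 24566. Peak lists hold no expression values, so the deletion itself was not measured, and many CTCF sites remained in the KO livers. Merging peaks by an overlap of at least 1 bp gave 26 sites in the 39 windows, 14 inside a gene span and 12 in a flank. Of these, 15 were retained (called in all 4 libraries), 3 were lost (called in both WT and neither KO), 0 were gained and 8 had other patterns. Lost sites made up 16.7% of lost and retained sites, against 15.7% over the windows of all genes.

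The lost sites were at Irx3, Gata4 and Tbx15. The Irx3 site, at chr8:91797595-91798292, lay 219 bp beyond the 3′ end of the gene and was enriched 8.72-fold in WT164 and 6.83-fold in WT165. Its nearest H3K27me3 peak was 299 bp away in KO and 617 bp away in WT. The Gata4 site, inside the span, had folds of 6.87 and 5.0 in WT, and the Tbx15 site, also inside the span, had 4.70 and 7.26. With the 4 lists cut to an equal number of peaks, 1 lost site was left. With 1 library left out, the number of lost sites was 5 without KO160, 5 without KO163, 3 without WT164 and 7 without WT165.

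Among the 15 retained sites, 4 had both KO folds below both WT folds (1 each at Lhx9, Nkx2-1, Nkx2-2 and Tbx18), as did 50.1% of retained sites in the genome, and 0 had both above, as did 3.4%. The strongest retained site lay 2.07 kb outside the Gata4 span, with folds of 17.6 and 18.2 in KO and 24.5 and 13.1 in WT. The Nkx2-2 site had folds of 6.87 and 9.83 in KO and 17.0 and 12.7 in WT, with no overlap between the groups. Beside Dlx2 a site 1.06 kb outside the span had 10.6 and 11 in KO and 10.7 and 9.99 in WT, so these values overlapped. A CTCF site lay within 1 kb of an H3K27me3 peak in 10 of 26 cases in KO and 11 in WT. It overlapped one in 3 cases in KO and 3 in WT. H3K27me3 peaks covered 20.9% of the length of these windows in KO and 13.4% in WT. Without the same share over all CTCF sites, these counts do not show whether CTCF lay closer to H3K27me3 here than elsewhere.

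**Figure D4:**
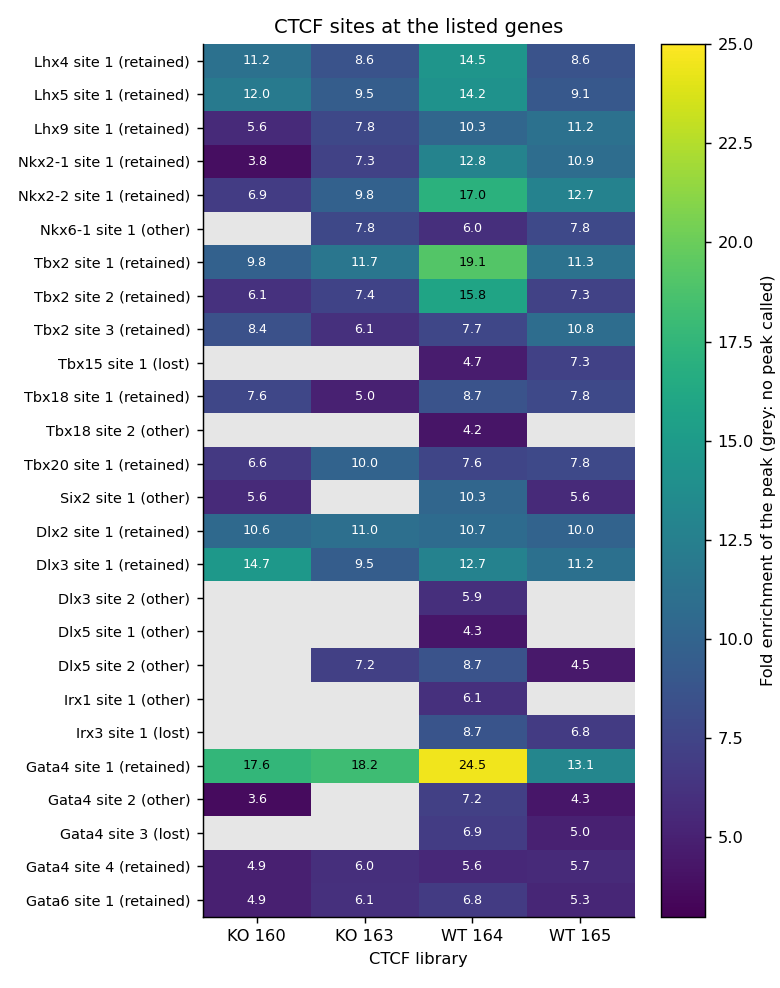
Fold enrichment, as the authors' peak caller gave it, at each of the 26 CTCF sites in the windows of the listed genes, with KO libraries in the left columns and WT libraries in the right ones, and grey where no peak was called. The 15 retained sites are filled in all 4 columns, and the 3 lost sites at Tbx15, Irx3 and Gata4 are grey in both KO columns.

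By CTCF coverage of the whole window, limma with Benjamini-Hochberg adjustment called 0 of 11639 genes higher in KO (0%) and 0 lower (0%), with 89 higher and 1139 lower at an unadjusted p under 0.05. The median over all genes was −0.40 points, and over the 18 listed genes −0.55, with 4 higher in KO and 14 lower, where 20.4% of all genes tested were higher in KO. Irx3 had no CTCF in KO160 and KO163, against 3.67% and 5.29% in WT164 and WT165. The difference of −4.48 points (SE 0.675, limma adjusted p = 0.358) did not pass the adjusted test. Tbx18 had 0.980% and 1.40% in KO, against 2.22% and 2.12% in WT (limma adjusted p = 0.434). Its retained site was narrower in KO and had lower folds, 7.65 and 4.99 in KO and 8.66 and 7.82 in WT. In all, 5 of the 18 genes had both KO values below both WT values (Tbx15, Tbx18, Six2, Dlx5, Irx3), as did 37.1% of the genes tested, and 1, Dlx2, had both above, as did 4.19%.

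PPARg, the nuclear receptor of lipid storage, was nearly absent from these genes: 3 of 39 had a peak in any library, against 41.2% of all genes. Nkx2-5 had peaks over 3.25% and 1.02% of its window in KO 7 and KO 8, and none in WT 2 or WT 4. Gata4 had 3.26% and 2.35% in KO, against 2.1% and 2.17% in WT. Gata6 had 3.07% and 5.66% in KO, against 6.22% and 2.94% in WT. The KO values lay above the WT values at Nkx2-5 and Gata4, as for 70.4% of all genes tested, and overlapped at Gata6; 0 of the 3 had both KO values below, as did 1.31% of all genes. None of the 3 passed limma with Benjamini-Hochberg adjustment (adjusted p between 0.175 and 0.922), while 2571 of 9020 genes (28.5%) were higher in KO and 24 (0.266%) lower. The lists were not called alike: the lowest −log10 q was 3.0 in KO 7, KO 8 and WT 2 and 1.31 in WT 4. Those counts over all genes became 0 without WT 2, 0 without WT 4 and 0 when libraries were divided by their total covered length.

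Taking all marks, 25 of the 39 genes had no H3K4me3, H3K27ac or PPARg peak in any library, as did 29.3% of all genes. Of these, 14 had no CTCF either and carried H3K27me3 alone, as did 2.65% of all genes. By mean coverage Nkx2-3, Dlx4 and Six3 led these 14. At the other end Gata6 had H3K4me3, H3K27ac, CTCF and PPARg and no H3K27me3. Irx3, Irx5, Lhx1, Lhx2 and Tbx2 combined H3K27me3 over at least 20.4% of the window in KO, and over at least 8.58% in WT, with H3K4me3 and H3K27ac.

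Other developmental regulators carried H3K27me3 to differing extents. It was found at 38 of 39 Hox genes in KO and 39 of 39 in WT, with medians of 36.6% in KO and 20.9% in WT. All 9 Pax genes had it in KO and 7 did in WT, with medians of 14.4% in KO and 6.52% in WT. Among 28 matched genes of the same families that are not in the list of 39, 19 had it in KO and 19 in WT, with medians of 11% in KO and 4.33% in WT. Of these, Lhx6 had 20.8% in KO and 15.4% in WT, Lmx1a had 3.36% in KO and 2.76% in WT, Lmx1b had 10.5% in KO and 5.71% in WT, and Isl1 had 16.8% in KO and 8.21% in WT. Of 10 neural stem cell markers, 8 had H3K27me3 in KO and 7 in WT.

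The genes of the Polycomb machinery looked different from its targets. All 31 had H3K4me3 in KO and in WT, 28 had H3K27ac in all 6 libraries, and 6 had any H3K27me3 in KO and 3 in WT. Ezh2, the main methyltransferase of complex 2, had H3K4me3 over 3.18% of its window in KO and 3.44% in WT, and the core subunits Eed and Suz12 had 6.09% and 3.48% in KO and 6.76% and 4.41% in WT. Of 30 tested, 0 passed the adjusted limma test for H3K27ac and 24 were higher in KO, against 75.9% of all genes tested. The H3K27 demethylase genes Kdm6a and Kdm6b and 10 genes of H3K4 methyltransferase complexes had no H3K27me3 in either genotype. Of 17 hepatocyte transcription factors, 1 had H3K27me3 in KO (Foxa1, over 3.29% of its window) and 0 in WT, and all 17 had H3K4me3 in both genotypes and H3K27ac in all 6 libraries.

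**Figure D5:**
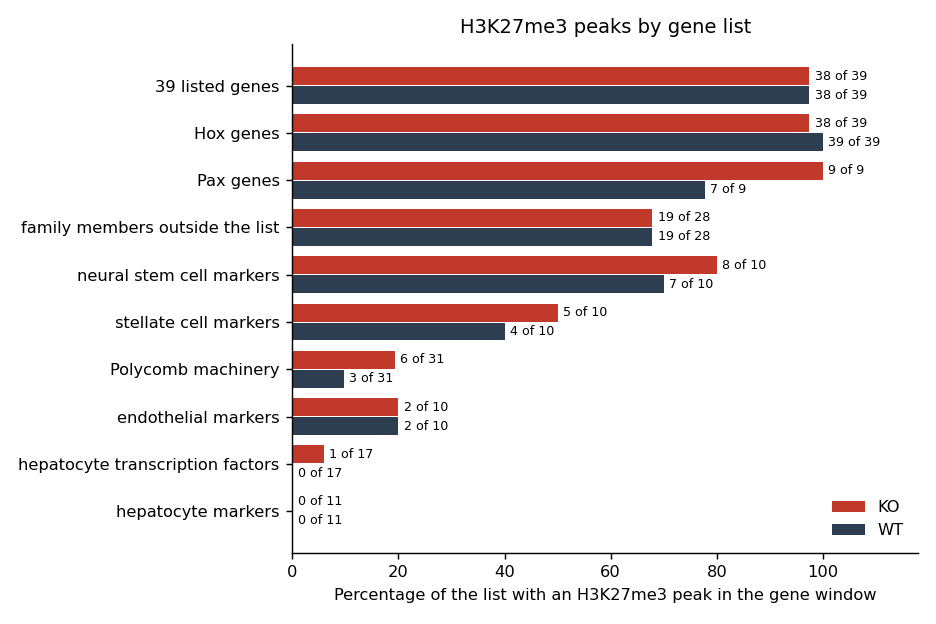
Percentage of the genes of each list with an H3K27me3 peak in the window, KO bars above WT bars, with counts beside the bars. The 39 listed genes (38 in KO, 38 in WT) and the Hox genes (38 in KO, 39 in WT) are nearly all marked, whereas 0 of 11 hepatocyte markers are in either genotype.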

How the data were processed

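ChIP-seq peak lists of mouse liver were used, 18 in all. Per the submitters' processing notes, the build was mm10 and the authors' tools were MACS2 2.1.2, BWA 0.7.12, deepTools 3.1.3 and Picard 1.77. The control used for peak calling is not given in the sources used here. Each deposited peak has a fold enrichment, which is a ratio, and −log10 p and q values, and the deposited whole-number score was not used. The lists carry no header, so columns were read in the order MACS2 writes. Read depth is unknown from peak lists, and the precision of a coverage value is limited by the number of libraries.

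Autosomal, X and Y peaks entered the analysis. The H3K4me3 lists repeat an interval for every summit, and joining repeats took 41181 KO and 43587 WT entries to 17402 KO and 16341 WT peaks. The measure was the percentage of a gene's RefSeq span, with 5 kb on each side, under merged peaks, with no scaling between libraries. H3K27ac, CTCF and PPARg were tested over all genes whose coverage varied between the libraries of the mark, KO against WT. The test was limma 3.58.1 (R 4.3.3), with Benjamini-Hochberg adjusted p under 0.05 as the threshold. The fit was also run on simulated data with normally distributed noise. Coverage values cannot be negative, so that run does not show how the fit behaves on them. H3K27me3 and H3K4me3 had 1 library per genotype and no test. The labels do not say whether libraries of a group came from separate animals, so p values measure the spread between libraries. The H3K27me3 libraries carry other numbers than those of the other marks. H3K4me3 KO 4 and WT 2 share their numbers with H3K27ac libraries, but the labels do not say that they share animals.

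The 39 genes and the other gene lists were chosen with earlier results of these data known. Values of all 39 genes are given for H3K27me3, and of those with a peak for the other marks. From other lists up to 4 genes with a peak were taken in list order, and Ezh2, Eed, Suz12, Kdm6a, Kdm6b and Foxa1 were named after their values were seen. The list entries Tf and Tbxt were not matched to a gene.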

Additional observations from a re-analysis of the deposited data

How the results depend on the processing

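The median H3K27me3 difference of 7.51 points was 6.70 with the gene span alone, 7.44 with 10 kb on each side and 4.37 with lists of equal covered length. No peak of these genes reached a −log10 q of 5, so at that threshold the median difference, the genes marked in KO, those marked in WT, those higher in KO and those at least 10 points higher were all 0. At a −log10 q of at least 2, chosen after seeing the data, the median difference was 11.3 points. There 35 genes were marked in KO and 14 in WT, 35 were higher in KO and 22 were at least 10 points higher. The whole lists held 2293 peaks in KO and 950 in WT at that threshold, so KO kept more peaks across the genome as well. H3K4me3 was found at 7 genes in KO at a −log10 q of at least 5. Retained CTCF sites numbered 9 with the gene span alone and 7 at a −log10 q of at least 10, and between 15 and 17 with 1 library left out. Lost sites numbered 1 with lists of equal number and between 3 and 7 with 1 library left out.

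Genes called for H3K27ac numbered 1 with a mean coverage of at least 5% and 1 at a −log10 q of at least 5, neither a listed gene, and 0 under the other settings. The shared numbers 2 and 4 of KO and WT H3K27ac libraries are not said to pair animals. Deviations from the group means correlated at −0.20 for number 2 and −0.17 for number 4, and the fit with the replicate block called 0 genes (274 at an unadjusted p under 0.05). The median H3K27ac difference over all genes was 0.92 points and became 0.0014 without KO 4. CTCF calls numbered 3 with the gene span alone. PPARg calls, 2595 in the reported fit, numbered between 0 and 3143 with 1 library left out, 1286 with a mean coverage of at least 5%, 0 after division by total covered length, 1523 with the gene span alone and 1452 at a −log10 q of at least 10. For CTCF and PPARg, leaving out a library leaves 1 in that group, which is then assumed to vary like the other group. The causes of these shifts were not tested.

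None of the 29 single values of the listed genes had passed the adjusted test in the reported fit. Of these values, 14 changed direction under at least 1 setting. With 1 library left out, the KO minus WT differences in points ran between −2.71 and 0.487 (Irx3) and between −0.794 and 1.23 (Irx5) for H3K27ac. For CTCF they ran between −0.653 and 0.193 (Lhx4), −0.659 and 0.490 (Lhx5), −0.207 and 0.382 (Lhx9), −0.831 and 1.63 (Nkx2-1), −2.80 and 0.0998 (Nkx6-1), −0.349 and 0.354 (Tbx20), −4.64 and 2.60 (Dlx3) and −1.17 and 0.575 (Gata4). For PPARg the range was −1.85 to 1.43 at Gata6. It was 1.02 to 3.25 at Nkx2-5 and 0.215 to 1.12 at Gata4, without a change of direction. Adjusted p values of single genes are not given for fits that leave 1 library in a group. Direction also changed with the gene span alone at Irx3 H3K27ac (3.14) and Tbx2 CTCF (0.166). After division by total covered length it changed at Irx5 H3K27ac (−0.397), at CTCF of Lhx4 (0.0841), Lhx5 (1.03), Nkx2-2 (0.749), Tbx2 (1.13), Dlx3 (1.19) and Gata4 (0.531), and at Gata4 PPARg (−2.03). Stricter −log10 q thresholds changed it at Irx5 H3K27ac (−0.927), at CTCF of Lhx9 (−2.79), Nkx2-1 (−3.98), Dlx3 (0.204) and Gata4 (0.193), and at PPARg of Gata4 (−0.225) and Gata6 (0.803).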
